A study of Mus musculus with 35 samples.

Results

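The response of macrophages to lipopolysaccharide (LPS) was measured in a setting where the glucocorticoid dexamethasone (Dex) was present throughout, in bone marrow-derived macrophages (BMDMs) labelled as lacking AMPKa1. The members are the 3 RNA-seq libraries of AMPKa1-/- BMDMs given LPS + Dex and the 3 given Dex alone, 6 of the 35 libraries of the series used here, and the 10971 of 47069 gene identifiers whose mean over these 6 libraries was at least 1 FPKM (a read-out of RNA level corrected for gene length and library size). All mice were C57BL/6. The series holds BMDMs of WT and AMPKa1-/- mice exposed for 24 h to the DMSO vehicle, to Dex at 100 nM, to LPS at 100 ng/ml, to damage-associated molecular patterns (DAMPs), or to LPS or DAMPs together with Dex. Cells had been grown out of whole bone marrow in L929-conditioned medium, which supplies the macrophage growth factor CSF-1. Each group had 3 libraries, except WT LPS with 2.

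LPS, a cell wall lipid of Gram-negative bacteria, is bound by CD14 and by the complex of TLR4 and MD-2, and signals through MyD88 to NF-kB and MAP kinases and through TRIF to IRF3 and type I interferon. Glucocorticoids bind the glucocorticoid receptor, which moves to the nucleus, switches on genes such as Tsc22d3 and Fkbp5, and holds down many cytokine genes that NF-kB and AP-1 drive. AMPK, the kinase that senses low cellular energy and whose catalytic subunit a1 is encoded by Prkaa1, has been linked in macrophages to the repair-promoting effects of glucocorticoids.

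Prkaa1 itself did not set the genotypes apart. It read 21.5, 14.0 and 20.4 FPKM in the 3 Dex libraries and 12.5, 12.9 and 9.65 FPKM in the 3 LPS + Dex libraries labelled AMPKa1-/-, against 26.1, 23.2 and 19.1 and 20.5, 13.7 and 8.59 FPKM in the corresponding WT libraries. The ranges of the genotypes overlapped under both treatments. A gene-level FPKM sums all exons and so cannot show the loss of part of a gene, and the exon removed is not given in the sources used here, so the genotype rests on the labels and the libraries are named by them below. Prkaa2, the other catalytic subunit, was under 0.1 FPKM in all 6 libraries.

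Depth was similar across the 6 libraries. Read off the smallest steps of the FPKM values, it came to 19817989, 21202930 and 21246678 fragments in the Dex libraries and 24806227, 18384604 and 18462007 in the LPS + Dex libraries. Pearson's r between libraries of a group, across genes on the log2 scale, was 0.993 to 0.996 for Dex and 0.992 to 0.997 for LPS + Dex. The second Dex and the third LPS + Dex library stood furthest from their groups, each with a median gap of 0.24 on the log2 scale to the other libraries, and the latter had 10353 genes at 1 FPKM or more, against 10657 and 10818 in the other LPS + Dex libraries.

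Most measured genes differed between LPS + Dex and Dex. Of 10971 genes tested, 6571 were called at an adjusted p under 0.05 (59.9%), 2178 higher (19.9%) and 4393 lower (40%) with LPS, and 916 of the higher and 1517 of the lower ones changed at least 2-fold. With every library centred on one median, the calls of at least 2-fold were 1194 higher and 1090 lower. The test was limma on log2(FPKM + 1), a scale on which the change of a gene at a few FPKM is understated, fitted over the 12 vehicle, Dex, LPS and LPS + Dex libraries labelled AMPKa1-/-, with Benjamini-Hochberg adjustment over all genes tested. In 6858 genes (62.5%) the 3 + 3 libraries did not overlap. The median change of all genes was -0.23 log2 units, and the excess of falls depended on the scaling: 33.1% of the calls were higher in the values as deposited, 48.0% with every library centred on one median, 46.3% after quantile normalization, 22.6% with each library rescaled to one FPKM sum, and 44.3% when the same rescaling left out the acute-phase genes. A change near the size of that median therefore has no settled direction here. In bulk libraries, fewer cells of a type and less RNA per cell cannot be told apart.

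**Figure D1:**
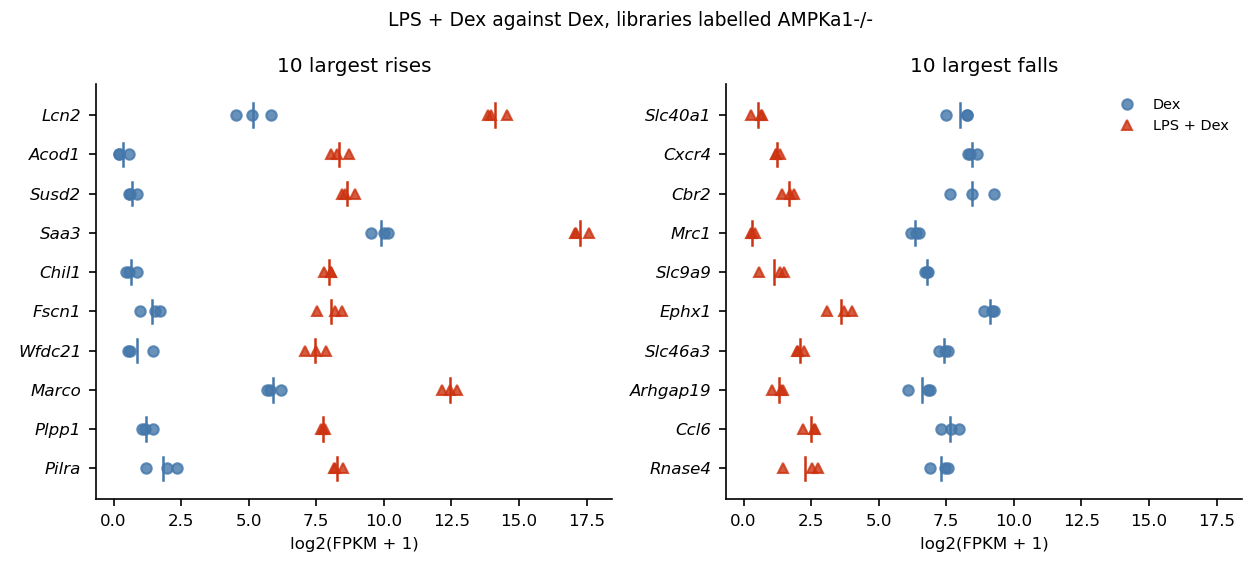
Expression of the 10 genes with the largest rises and the 10 with the largest falls, as log2(FPKM + 1) in each library labelled AMPKa1-/- given Dex or LPS + Dex (3 each). Each point is 1 library. The short line is the group mean, and genes were chosen among those whose groups do not overlap.

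Secreted acute-phase and antimicrobial proteins were among the largest rises. Lcn2, which encodes the iron-siderophore trap lipocalin 2 (chr2:32384633-32388252, GRCm38), read 55.2, 33.9 and 22.1 FPKM with Dex and 14758, 15797 and 24153 FPKM with LPS + Dex. Its rise was the largest of the called genes with a symbol and no overlap (log2 fold change 8.96 ± 0.35 (SE, n = 3 per group), limma adjusted p = 1.29e-09). Saa3, an acute-phase serum amyloid that macrophages themselves make (chr7:46711998-46715700), read 1029, 1149 and 727 FPKM with Dex and 139167, 140798 and 194819 FPKM with LPS + Dex (log2 fold change 7.36 ± 0.44 (SE), limma adjusted p = 4.48e-08). This one gene took 0.14, 0.148 and 0.1% of the FPKM sum in the Dex libraries and 16.5, 17.1 and 21.5% in the LPS + Dex libraries, against 5.51, 7.58 and 3.74% with LPS alone. No other gene took such a share, and the third LPS + Dex library held the highest values of both Saa3 and Lcn2.

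The promoters of both genes are shown because they hold a match to the C/EBP motif, which a larger share of acute-phase genes held than of all genes. The runs are the 250 bases before the RefSeq transcription start (GRCm38.p6, both genes on the minus strand and printed in the direction of transcription, Saa3 at chr7:46715677-46715926 and Lcn2 at chr2:32387740-32387989), and capitals mark the matches.
Saa3: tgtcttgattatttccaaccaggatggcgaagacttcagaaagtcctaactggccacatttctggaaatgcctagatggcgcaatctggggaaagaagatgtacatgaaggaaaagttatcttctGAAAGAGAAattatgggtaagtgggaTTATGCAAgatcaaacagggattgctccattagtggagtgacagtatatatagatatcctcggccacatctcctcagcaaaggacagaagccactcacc
Lcn2: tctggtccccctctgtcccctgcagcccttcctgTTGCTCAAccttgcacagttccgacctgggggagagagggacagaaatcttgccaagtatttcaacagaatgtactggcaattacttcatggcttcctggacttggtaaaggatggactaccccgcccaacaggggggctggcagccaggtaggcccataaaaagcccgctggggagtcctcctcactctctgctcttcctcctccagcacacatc
In Saa3 the capitals are, from left to right, a match to the interferon-stimulated response element (ISRE, searched as GAAANNGAA), which starts 125 bases before the transcription start, and one to the C/EBP motif (searched as TTGCNNAA) at 99 bases, read on the opposite strand. The capitals in Lcn2 are a C/EBP match at 216 bases. Both strands were searched, with the NF-kB consensus as the third motif, and these matches do not overlap. RefSeq promoters were found for 23 of the 26 acute-phase and alarmin genes, of which 12 held a C/EBP match (52.2%), 3 an NF-kB match (13.0%) and 3 an ISRE match. Of all 27025 genes with a promoter of that length in the table, 10.8% held C/EBP, 8.23% NF-kB and 8.18% ISRE, and of the 8422 that were also tested 9.31, 10.5 and 7.68%. Among the 10 largest rises, 3 of the 7 with a promoter in the table held a C/EBP match, Saa3 and Lcn2 among them, against 1 of 9 for the 10 largest falls. An ISRE match was held by 2 of the same 7 and an NF-kB match by 1, against 0 of 9 falls for each. A match is a string of letters and not evidence that a factor binds there.

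Of the 26 acute-phase and alarmin genes, 22 were tested, 18 rose (81.8%, against 19.9% of all genes) and 3 fell, with a median of 4.71 log2 units against -0.23 for all genes. Of these, 7 were under 1 FPKM on average with Dex, so that the filter on low values let them in through the LPS + Dex libraries. Among the 15 that averaged 1 FPKM or more in both groups, 11 rose and 3 fell. Hp, which encodes the haemoglobin-binding protein haptoglobin, went from 407, 707 and 389 FPKM to 15517, 14745 and 16350.1 FPKM (log2 fold change 5.01 ± 0.43 (SE), limma adjusted p = 8.60e-07), with no overlap between groups. Cp, the copper-carrying ferroxidase ceruloplasmin, went from 8.22, 7.98 and 6.88 to 357, 489 and 374 FPKM (log2 fold change 5.54). Chil1, a secreted chitinase-like protein without enzyme activity, read 0.824, 0.471 and 0.384 FPKM with Dex and 263, 264 and 222 FPKM with LPS + Dex (log2 fold change 7.33 ± 0.22 (SE), limma adjusted p = 1.58e-10). The formyl peptide receptors Fpr1 and Fpr2, which sense bacterial peptides, rose by 5.52 and 5.62 log2 units, the protease inhibitor Slpi by 5.15 and the whey acidic protein family member Wfdc21 by 6.60.

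The alarmin pair S100a8 and S100a9, whose products form calprotectin together, differed in their responses. S100a8 read 19.1, 13.4 and 8.13 FPKM with Dex and 307, 301 and 581 FPKM with LPS + Dex (log2 fold change 4.77 ± 0.35 (SE), limma adjusted p = 2.63e-07), with no overlap between groups. S100a9 read 16.4, 10.4 and 8.94 and 11.3, 2.64 and 1.99 FPKM, and its groups overlapped (log2 fold change -1.29, limma adjusted p = 0.115). It would be called without the first LPS + Dex library (-1.93, limma adjusted p = 0.0283) and with only the 2 groups compared in the fit (limma adjusted p = 0.0482). Chil3, a chitinase-like lectin, fell (109, 46.9 and 41.9 to 24.2, 7.48 and 2.12 FPKM, log2 fold change -2.80). Saa1 and Saa2, Orm1 and Orm2, and the Serpina3 genes are near-copies of each other, so that their separate values are uncertain. Saa1 went from at most 0.156 FPKM to 21.6, 24.7 and 30.4 FPKM, and Serpina3g from at most 0.0481 FPKM to 36.6, 44.1 and 86.0 FPKM.

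The other genes among the 10 largest rises had varied roles. Acod1 (chr14:103046977-103056573), the mitochondrial enzyme that makes itaconate, read 0.5, 0.162 and 0.161 FPKM with Dex and 416, 311 and 261 FPKM with LPS + Dex (log2 fold change 8.0 ± 0.29 (SE), limma adjusted p = 7.73e-10). Susd2, a membrane protein, read 0.820, 0.537 and 0.490 and 372, 350.5 and 489 FPKM (log2 fold change 7.96 ± 0.16 (SE), limma adjusted p = 6.78e-12). Marco, a scavenger receptor that binds bacteria, went from 54.2, 72.0 and 50.5 FPKM to 5642, 4499.9 and 6679 FPKM (log2 fold change 6.55 ± 0.24 (SE), limma adjusted p = 8.38e-10). The actin-bundling protein Fscn1 rose by 6.64 log2 units, the lipid phosphatase Plpp1 by 6.53 and the inhibitory receptor Pilra by 6.43.

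The 10 largest falls were led by Slc40a1 and Cxcr4. Slc40a1 (chr1:45908068-45926523), which encodes ferroportin, the sole known iron exporter, went from 310.5, 179 and 311 FPKM to 0.587, 0.216 and 0.574 FPKM (log2 fold change -7.49 ± 0.29 (SE), limma adjusted p = 1.14e-09). Cxcr4 (chr1:128588199-128592293), the receptor for CXCL12, went from 315, 329.5 and 395 FPKM to 1.31, 1.29 and 1.52 FPKM (log2 fold change -7.19 ± 0.14 (SE), limma adjusted p = 6.78e-12). Mrc1 (chr2:14229392-14332057), the mannose receptor CD206, went from 81.9, 72.2 and 89.9 FPKM to 0.336, 0.205 and 0.233 FPKM (log2 fold change -6.03 ± 0.12 (SE), limma adjusted p = 6.78e-12). All 3 were abundant in each Dex library and near 1 FPKM or less in each LPS + Dex library. Cbr2, a carbonyl reductase, was less even between cultures, at 348, 615 and 198 FPKM with Dex and 2.61, 2.32 and 1.67 FPKM with LPS + Dex (log2 fold change -6.78 ± 0.46 (SE), limma adjusted p = 1.20e-07). The sodium-proton exchanger Slc9a9 fell by 5.64, the epoxide hydrolase Ephx1 by 5.50, the lysosomal transporter Slc46a3 by 5.34, the GTPase regulator Arhgap19 by 5.31, the chemokine Ccl6 by 5.17 and the ribonuclease Rnase4 by 5.05 log2 units.

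Scavenger and clearance receptors were split. Of 21 genes, 18 were tested, 6 rose (33.3%, against 19.9% of all genes) and 10 fell (55.6%, against 40%), with a median of -0.87. Of these, 2 averaged under 1 FPKM with LPS + Dex, and among the 16 at 1 FPKM or more in both groups 6 rose and 8 fell (median -0.42). Without the filter the median of the list was -0.22. Gas6, the ligand that bridges dying cells to the receptors Mertk and Axl, fell from 219, 133 and 159.8 to 5.88, 3.86 and 4.34 FPKM (log2 fold change -4.90, limma adjusted p = 1.39e-09). Mertk fell by 1.35 log2 units while Axl rose by 1.02. The C-type lectin pair also parted. Clec4e, which senses mycobacterial glycolipid, rose from 57.6, 47.9 and 43.1 to 1353, 944 and 797 FPKM, and Clec7a, the beta-glucan receptor dectin-1, fell from 16.6, 14.6 and 13.8 to 0.709, 0.442 and 0.183 FPKM. Among the Fc receptors, Fcgr1 and Fcgr4 rose by 2.74 and 2.09 log2 units and Fcgr3 fell by 2.96.

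At the receptor itself, the LPS-binding parts moved in opposite directions. Tlr4 read 31.0, 31.0 and 39.2 FPKM with Dex and 11.2, 12.8 and 6.29 FPKM with LPS + Dex (log2 fold change -1.69 ± 0.23 (SE), limma adjusted p = 5.01e-05). Ly96, which encodes MD-2, read 87.3, 80.8 and 72.2 and 23.8, 26.8 and 32.9 FPKM (log2 fold change -1.50 ± 0.12 (SE), limma adjusted p = 5.84e-07). Cd14 read 229, 349 and 259.9 and 1429.8, 1177 and 1371 FPKM (log2 fold change 2.26 ± 0.23 (SE), limma adjusted p = 4.63e-06). Both parts of the signalling complex fell and the co-receptor rose. The groups did not overlap in any of the 3 genes, as in 62.5% of all genes tested. Of the 22 receptor, adaptor and proximal kinase genes, 21 were tested, 5 rose and 7 fell, 57.1% called against 59.9% of all genes. The median change of this list was -0.18, and it was 0.02 after centring and 0.01 after quantile normalization, so it has no firm direction. The kinases Irak2 and Ikbke rose by 2.13 and 2.65 log2 units, and Myd88 read 48.7, 52.8 and 46.7 and 49.9, 49.2 and 55.7 FPKM (log2 fold change 0.06, limma adjusted p = 0.725).

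Most NF-kB subunits and regulators rose. Of 17 subunits and regulators, 12 rose (70.6%, against 19.9% of all genes) and 2 fell (median 1.36). The largest rises were those of Tnip3, an inhibitor that binds A20 (5.68, 4.88 and 4.74 to 95.2, 91.4 and 62.1 FPKM, log2 fold change 3.76 ± 0.24 (SE), limma adjusted p = 7.76e-08), of Tnfaip3, A20 itself (9.66, 5.86 and 10.9 to 121, 133 and 114 FPKM, log2 fold change 3.69 ± 0.19 (SE), limma adjusted p = 1.34e-08), and of Nfkbiz, a nuclear IkB that co-activates a second wave of targets (3.85, 2.21 and 5.45 to 42.8, 48.7 and 29.2 FPKM, log2 fold change 3.12 ± 0.24 (SE), limma adjusted p = 3.43e-07). Irak3, which blocks the receptor-proximal kinases, rose by 2.89 and Nfkbia, the classic IkB, by 2.07. The subunit Rela fell (log2 fold change -0.80), and the subunits Nfkb1 and Nfkb2 rose by 0.87 and 1.36.

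Genes of feedback on cytokine signalling were mixed. Of 22 genes, 18 were tested, 8 rose (44.4%, against 19.9% of all genes) and 6 fell (33.3%, against 40%), with a median of 0.61. Of these, 3 averaged under 1 FPKM with Dex, and among the 14 at 1 FPKM or more in both groups 6 rose and 5 fell (median 0.089). After centring 10 of the 18 rose and 2 fell. Socs3, which stops IL-6 family signalling at its receptors, went from 3.59, 2.50 and 3.09 to 290.0, 328 and 341 FPKM (log2 fold change 6.31 ± 0.21 (SE), limma adjusted p = 4.90e-10). The MAP kinase phosphatase Dusp2 rose by 4.14 and Socs1 by 3.35. The RNA decay factor Zfp36l1 fell by 2.72 log2 units. Among 15 C/EBP and AP-1 factors, 13 were tested, 4 rose and 4 fell, 61.5% called against 59.9% of all genes. Their median was 0.22, and it was 0.42 after centring and 0.044 with libraries rescaled to one FPKM sum. Batf, Fos and Cebpb rose by 3.26, 1.57 and 1.14 log2 units, and Cebpa and Atf3 fell by 1.85 and 1.87.

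Several inflammatory cytokine genes rose from almost nothing to low or moderate levels. Il1b read 1.56, 1.17 and 0.35 FPKM with Dex and 146, 206 and 92.1 FPKM with LPS + Dex (log2 fold change 6.17 ± 0.42 (SE), limma adjusted p = 1.40e-07). Tnf read 0.423, 0.243 and 0.121 and 42.4, 28.8 and 37.4 FPKM (log2 fold change 4.87 ± 0.32 (SE), limma adjusted p = 1.04e-07). Il12a, one chain of IL-12, read 0.184, 0.0430 and 0 and 10.6, 9.26 and 10.3 FPKM. In each of the 3 the lowest LPS + Dex library lay far above the highest Dex library. Groups without overlap were found in 62.5% of all genes tested. Il6 reached only 1.49, 1.75 and 3.10 FPKM (log2 fold change 1.57, limma adjusted p = 0.000331), and Csf3 2.03, 3.35 and 11.1 FPKM from 0 in each Dex library. Of 19 cytokine genes, 15 were tested, 10 rose (66.7%, against 19.9% of all genes) and 3 fell. Of these, 5 averaged under 1 FPKM with Dex and passed the filter through the LPS + Dex libraries. Among the 9 at 1 FPKM or more in both groups, 5 rose and 3 fell. Il15, which supports T and NK cells, was the clearest fall (11.1, 9.86 and 9.08 to 1.31, 1.28 and 0.653 FPKM, log2 fold change -2.41). The anti-inflammatory Il1rn rose by 3.63 and Il10 by 1.04 log2 units.

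Of 24 chemokine genes, 15 were tested, 12 rose (80%, against 19.9% of all genes) and 3 fell. As with the cytokines, 4 of them averaged under 1 FPKM with Dex, and over the 10 at 1 FPKM or more in both groups 8 rose and 2 fell. Ccl5, which draws T cells and monocytes, went from 14.3, 30.8 and 11.6 to 1034, 817 and 2423 FPKM (log2 fold change 6.12 ± 0.47 (SE), limma adjusted p = 3.37e-07), with the third LPS + Dex library highest. Cxcl13, which draws B cells, went from 0.219, 0.902 and 0.123 to 77.5, 98.0 and 10.7 FPKM (log2 fold change 5.03 ± 0.68 (SE), limma adjusted p = 4.34e-05), and here the third library was the lowest of its group. The neutrophil attractants Cxcl1 and Cxcl2 rose by 2.56 and 3.71. Those that fell were Ccl6, Ccl9 (log2 fold change -2.53) and Ccl24 (log2 fold change -2.12). The other 9, among them Ccl2, Ccl7, Cxcl5, Cxcl9, Cxcl10 and Cxcl11, averaged under 1 FPKM over the 6 libraries and were not tested.

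Interferon-stimulated genes had a small median change with Dex present, and 16 of those tested were not called. Of 34, 29 were tested, 11 rose (37.9%, against 19.9% of all genes) and 2 fell (6.9%, against 40%), and their median was 0.23 log2 units against -0.23 for all genes. Among the 26 at 1 FPKM or more in both groups, 9 rose and 2 fell. Isg15, the ubiquitin-like modifier, read 8.74, 10.7 and 7.04 FPKM with Dex and 41.0, 36.3 and 35.7 FPKM with LPS + Dex (log2 fold change 1.99 ± 0.32 (SE), limma adjusted p = 0.000204). Bst2, which tethers budding virus, read 227, 243 and 155 and 878, 775 and 766 FPKM (log2 fold change 1.97 ± 0.21 (SE), limma adjusted p = 6.18e-06), and Oasl1 3.95, 4.13 and 1.35 and 12.3, 9.44 and 11.2 FPKM (log2 fold change 1.61). These were the largest changes of the list. The regulator Irf7 was not called (35.9, 69.8 and 24.8 and 71.9, 62.2 and 35.5 FPKM, limma adjusted p = 0.439), and Irf1 fell by 0.82. The counts were 13 higher and 1 lower after centring, and 8 higher and 3 lower with libraries rescaled to one FPKM sum.

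The response to LPS without Dex was of another size in the same genes. With LPS alone, 33 of the 34 were called higher than with vehicle and none lower (median 3.88), against 21% higher and 44.3% lower of all genes tested. The difference between the responses was called in all 34, each smaller with Dex (median of the difference -3.60), against 12.5% called smaller of all genes. Isg15 read 18.4, 13.9 and 6.09 FPKM with vehicle and 1737, 1268 and 2594 FPKM with LPS. Cxcl10, an interferon-induced chemokine, read 1.77, 1.09 and 0.189 FPKM with vehicle and 536, 324 and 994 FPKM with LPS, and 0.121, 0.263 and 0.0750 and 1.32, 0.693 and 0.863 FPKM in the Dex and LPS + Dex libraries. In Cxcl10 the LPS libraries thus stood far above every other group. The promoters of both are shown as examples, chosen for their ISRE matches (GRCm38.p6, minus strand, 250 bases before the start, Cxcl10 at chr5:92348890-92349139 and Isg15 at chr4:156200819-156201068, capitals as above with NF-kB added).
Cxcl10: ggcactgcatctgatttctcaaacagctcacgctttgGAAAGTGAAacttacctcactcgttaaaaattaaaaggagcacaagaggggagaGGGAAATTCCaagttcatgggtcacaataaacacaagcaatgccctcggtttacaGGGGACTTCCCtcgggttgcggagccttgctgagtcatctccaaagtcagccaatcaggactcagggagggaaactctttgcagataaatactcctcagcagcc
Isg15: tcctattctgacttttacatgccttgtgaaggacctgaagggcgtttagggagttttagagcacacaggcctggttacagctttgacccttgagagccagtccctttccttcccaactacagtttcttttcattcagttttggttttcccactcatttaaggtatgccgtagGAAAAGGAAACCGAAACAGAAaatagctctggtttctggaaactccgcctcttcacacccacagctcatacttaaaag
In Cxcl10 the first run of capitals is an ISRE match at 213 bases before the start, the second an NF-kB match at 159 bases, and the third a pair of overlapping NF-kB matches at 104 and 103 bases. In Isg15 the single run of capitals is made of ISRE matches at 78, 72 and 66 bases, which overlap at their ends. Of 27 interferon-stimulated genes with a RefSeq promoter, 15 held an ISRE match (55.6%), 7 an NF-kB match (25.9%) and 1 a C/EBP match (3.70%). The chemokines had 16 promoters of 24 genes, 5 with an NF-kB match (31.2%), 4 with an ISRE match (25%) and 2 with a C/EBP match (12.5%). Of all genes with a promoter, 8.23% held NF-kB, 8.18% ISRE and 10.8% C/EBP.

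**Figure D2:**
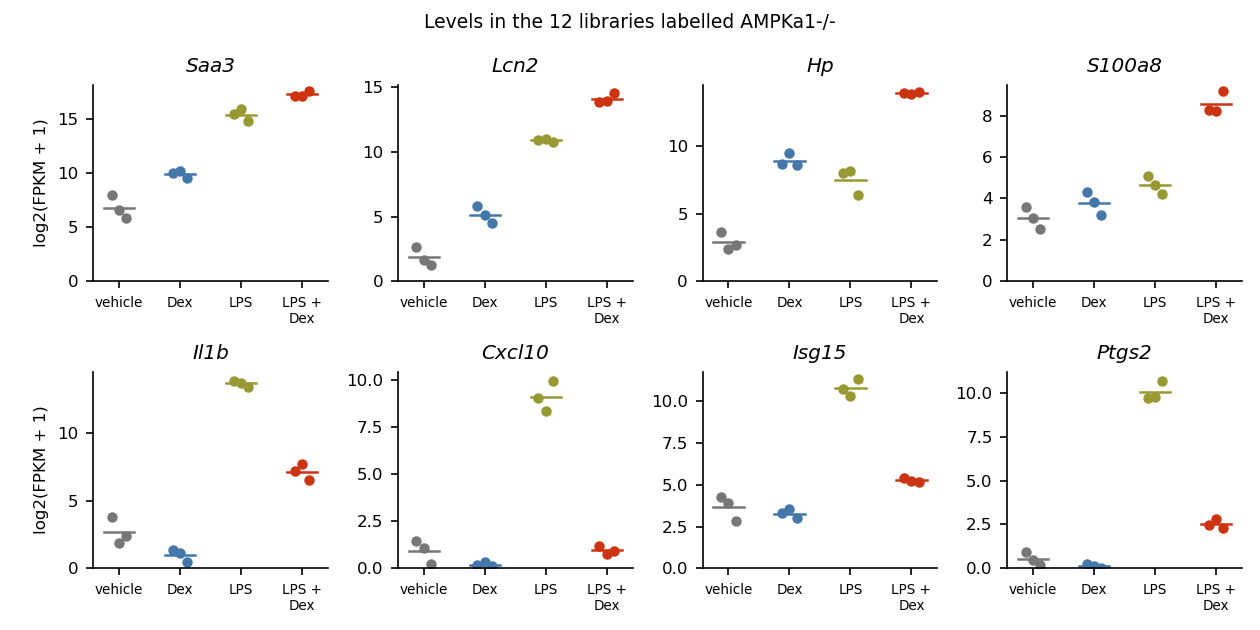
Levels of 8 genes, as log2(FPKM + 1), in the 12 libraries labelled AMPKa1-/- given vehicle, Dex, LPS or LPS + Dex (3 each). Each point is 1 library, and the bar is the group mean. Lcn2 and Saa3 stand high with LPS both with and without Dex, whereas Isg15 and Il1b stand highest with LPS alone.

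Genes that glucocorticoids switch on split much as all genes did when LPS was added. Of 17, 16 were tested, 3 rose (18.8%) and 7 fell (43.8%), against 19.9% and 40% of all genes tested (median -0.49). Tsc22d3, which encodes the anti-inflammatory leucine zipper protein GILZ, read 744, 839.7 and 899 FPKM with Dex and 129, 167 and 185 FPKM with LPS + Dex (log2 fold change -2.37 ± 0.17 (SE), limma adjusted p = 2.07e-07). Ddit4, an inhibitor of mTORC1, read 608, 409 and 599 and 35.1, 55.2 and 40.5 FPKM (log2 fold change -3.60 ± 0.26 (SE), limma adjusted p = 2.37e-07). Stab1, a clearance receptor, fell by 2.85 and the metallothionein Mt2 rose by 2.64. Without Dex, Tsc22d3 read 53.3, 48.3 and 52.9 FPKM with vehicle and 1.56, 3.16 and 2.50 FPKM with LPS, a larger fall on this scale (difference of the responses 1.6 ± 0.24, limma adjusted p = 0.000365). Fkbp5, a co-chaperone of the receptor, read 299, 297 and 356 and 211, 250.1 and 249 FPKM (limma adjusted p = 0.0502), and the clock gene Per1 44.8, 26.1 and 44.2 and 24.3, 29.1 and 26.3 FPKM, neither of them called. Both were called lower with libraries rescaled to one FPKM sum (limma adjusted p = 0.0126 and 0.0404), and Per1 without the second Dex library (-0.73, limma adjusted p = 0.0178). Fkbp5 lay at the threshold and was called lower when vehicle replicate 1 or 2 or LPS replicate 2 or 3 was left out of the fit (limma adjusted p = 0.0161 to 0.0482). Over all alternatives its limma adjusted p ran from 0.0126 to 0.316. The receptor gene Nr3c1 read 26.3, 23.6 and 28.5 FPKM with Dex and 34.6, 35.6 and 25.2 FPKM with LPS + Dex, overlapping and not called (log2 fold change 0.26, limma adjusted p = 0.144). It was called higher after centring (0.47, limma adjusted p = 0.00738) and without the third LPS + Dex library (0.42, limma adjusted p = 0.0215). Of 9 receptor and chaperone genes, 8 were tested, 5 rose (62.5%, against 19.9% of all genes) and none fell (3 rises with libraries rescaled to one FPKM sum, 7 after centring). Among the 7 at 1 FPKM or more in both groups, 4 rose. The chaperone Hsp90aa1 rose by 1.58 and Hsd11b1, the enzyme that regenerates active glucocorticoid in cells, which passed the filter through the LPS + Dex libraries, went from at most 0.173 FPKM to 5.57, 3.55 and 2.97 FPKM.

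Glycolytic genes rose broadly. Of 22, 17 rose and 1 fell (median 1.16), 77.3% higher against 19.9% of all genes tested. Pfkfb3, which makes the activator of phosphofructokinase, went from 55.7, 35 and 83.4 to 465, 597 and 433 FPKM (log2 fold change 3.15 ± 0.30 (SE), limma adjusted p = 2.44e-06). Slc2a6, a hexose transporter, rose by 2.36, Pfkl by 2.25, the lactate exporter Slc16a3 by 2.09 and the lactate dehydrogenase Ldha by 1.95 log2 units. The one fall was that of the glucose transporter Slc2a3 (22.6, 22.1 and 22.1 to 3.96, 5.63 and 4.17 FPKM, log2 fold change -2.07). Across the scalings the rises numbered 16 to 18.

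Genes of the tricarboxylic acid (TCA) cycle rose by smaller amounts. Of 17, 11 rose (64.7%, against 19.9% of all genes) and 3 fell (median 0.52). Idh3a, the catalytic subunit of NAD-dependent isocitrate dehydrogenase, read 6.13, 6.34 and 7.54 FPKM with Dex and 45.4, 41.4 and 41.2 FPKM with LPS + Dex (log2 fold change 2.51 ± 0.14 (SE), limma adjusted p = 3.03e-08). Mdh2 rose from 129.9, 137 and 117 to 362, 312 and 377 FPKM and Ogdh from 40.0, 35.5 and 42.7 to 93.6, 101 and 86.1 FPKM. Suclg2, Idh2 and Idh3g fell, though Idh2 was not called after centring (-0.44, limma adjusted p = 0.0622). Without Dex the same 17 genes split into 5 higher and 6 lower (median -0.04), against 21% and 44.3% of all genes, and the difference of the responses was called in 10, each more positive with Dex, against 15.2% of all genes. The rises with Dex numbered 13 after centring and 9 with libraries rescaled to one FPKM sum.

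Most transcripts encoded in mitochondria also had a more positive response to LPS with Dex. Of 13, 12 were tested, 5 rose (41.7%, against 19.9% of all genes) and none fell with Dex present (median 0.60), while 10 fell and none rose without it (median -0.95), against 44.3% lower of all genes. The difference was called in 9, each more positive with Dex, against 15.2% of all genes. mt-Nd3 read 8.70, 7.73 and 7.84 FPKM with Dex and 23.1, 25.9 and 30.5 FPKM with LPS + Dex (log2 fold change 1.59 ± 0.17 (SE), limma adjusted p = 5.19e-06). mt-Nd1 read 1309.8, 1139 and 1494 and 3008, 2992 and 3561 FPKM with Dex present, and 1477, 1507 and 1658 and 1130.2, 1005 and 845 FPKM with vehicle and LPS. The rises with Dex numbered 8 after centring and 3 with libraries rescaled to one FPKM sum, and none fell under either.

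Around itaconate and nitric oxide, the arginine transporter Slc7a2 rose from 2.81, 2.29 and 2.92 to 167, 161 and 163 FPKM (log2 fold change 5.49 ± 0.15 (SE), limma adjusted p = 8.47e-11) and the mitochondrial superoxide dismutase Sod2 from 21.9, 22.7 and 24.5 to 422, 402 and 417 FPKM (log2 fold change 4.11 ± 0.10 (SE), limma adjusted p = 4.58e-11). Of these 10 genes, 8 were tested, 6 rose (75%, against 19.9% of all genes) and 1 fell. Of these, 2 averaged under 1 FPKM with Dex, and among the 6 at 1 FPKM or more in both groups 4 rose and 1 fell. Nos2, the inducible nitric oxide synthase, was at 0.25 FPKM or less in all 6 libraries, against 32.2, 46.0 and 48.3 FPKM with LPS alone. Of 14 prostaglandin genes, 4 rose and 8 fell (57.1%, against 40% of all genes; median -1.41), and of the 11 at 1 FPKM or more in both groups 3 rose and 6 fell. Ptges, the inducible prostaglandin E synthase, rose from 2.68, 2.76 and 1.62 to 177, 131 and 238 FPKM (log2 fold change 5.75 ± 0.21 (SE), limma adjusted p = 7.28e-10) and Ptgs2, the inducible cyclo-oxygenase COX-2, from 0.168, 0.118 and 0 to 4.64, 5.90 and 3.85 FPKM. Hpgds, which makes prostaglandin D2, and Hpgd, which breaks prostaglandins down, fell by 2.79 and 2.51 log2 units.

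Sterol synthesis genes rose, while Abca1 and Abcg1 fell. Of 17 genes of the list, 16 were tested, 11 rose (68.8%, against 19.9% of all genes) and 4 fell (median 1.39). Idi1 rose by 3.04, Sqle by 2.72 and Fdft1 by 2.28, all enzymes on the way to squalene or beyond it. The cholesterol exporters Abca1 and Abcg1 fell from 45.6, 41.2 and 70.6 to 3.87, 9.0 and 4.81 FPKM and from 53.6, 58.2 and 77.4 to 3.61, 8.15 and 11.1 FPKM. Of 22 antioxidant and glutathione genes, 4 rose and 13 fell (59.1%, against 40% of all genes; median -0.64), with 10 falls after centring. Slc7a11, the cystine importer, rose from 1.52, 1.18 and 1.57 to 54.5, 46.1 and 119.6 FPKM (log2 fold change 4.82 ± 0.33 (SE), limma adjusted p = 1.42e-07) and the peroxiredoxin Prdx5 by 2.48, while Gclm, a subunit of the enzyme that starts glutathione synthesis, fell by 2.36. Among iron and heme genes, 4 rose (30.8%) and 6 fell (46.2%) of 13 tested, against 19.9% and 40% of all genes, and among the 11 at 1 FPKM or more in both groups 3 rose and 5 fell. Beside Slc40a1, the heme oxygenase Hmox1 fell from 3137, 3487 and 2839 to 389, 354 and 401 FPKM (log2 fold change -3.04 ± 0.19 (SE), limma adjusted p = 5.49e-08) and the metalloreductase Steap4 rose by 2.62.

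Of 13 complement genes tested, 4 rose (30.8%) and 6 fell (46.2%), against 19.9% and 40% of all genes (median -0.26), and among the 12 at 1 FPKM or more in both groups 3 rose and 6 fell. After centring 5 rose and 5 fell, with a median of -0.061. The C1q chain C1qb fell from 5108, 6879 and 5333 to 906, 1107 and 1011 FPKM and C3 rose from 93.7, 202 and 102 to 944, 1164 and 583 FPKM (log2 fold change 2.78). Of 16 matrix protease genes, 11 were tested, 3 rose (27.3%) and 6 fell (54.5%), against 19.9% and 40% of all genes. The median of this list was -1.78. That median was -1.13 over the 10 genes at 1 FPKM or more in both groups, -0.98 with the filter set over all libraries of the fit and -0.30 without a filter. Mmp14, a membrane-bound collagenase, rose from 16.9, 19.3 and 25.4 to 539.9, 632 and 466 FPKM (log2 fold change 4.68 ± 0.16 (SE), limma adjusted p = 5.26e-10), and its regulator Timp2 fell from 232, 242 and 213 to 15.6, 16.1 and 14.0 FPKM (log2 fold change -3.83 ± 0.10 (SE), limma adjusted p = 8.47e-11). Mmp12, the macrophage elastase, fell by 3.14. Of 9 AMPK subunit and upstream kinase genes, 7 were tested, 1 rose and 6 fell (85.7%, against 40% of all genes), which became 3 falls after centring. Prkag2, a regulatory subunit, fell by 2.02 log2 units, and Prkaa1 by 0.62.

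Cell cycle genes fell at about the rate of all genes. Of 17, 3 rose and 8 fell (47.1%, against 40% of all genes; median -0.44). Of these genes 4 averaged under 1 FPKM with LPS + Dex and passed the filter through the Dex libraries, and among the 13 at 1 FPKM or more in both groups 3 rose and 4 fell. The mitotic cyclin Ccnb2 read 4.55, 6.49 and 4.61 FPKM with Dex and 0.680, 0.741 and 0.351 FPKM with LPS + Dex (log2 fold change -1.96 ± 0.17 (SE), limma adjusted p = 9.27e-07), the cyclin Ccnb1 fell by 1.65 and the mitotic kinase Plk1 by 1.51. Without Dex, 14 of the 17 fell and 1 rose (median -2.12), against 44.3% and 21% of all genes, and the difference of the responses was called in 14, each more positive with Dex, against 15.2% of all genes. Ccnd1, the cyclin of early G1, read 45.8, 80.0 and 38.0 FPKM with vehicle, 0.692, 0.871 and 0.239 with LPS, 1.82, 2.58 and 2.19 with Dex and 1.09, 1.73 and 0.875 with LPS + Dex. It fell without Dex (log2 fold change -5.07) and was not called with Dex (-0.53, limma adjusted p = 0.0929), though it was called with only the 2 groups compared in the fit (limma adjusted p = 0.0482) and without the second vehicle library (limma adjusted p = 0.0374).

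**Figure D3:**
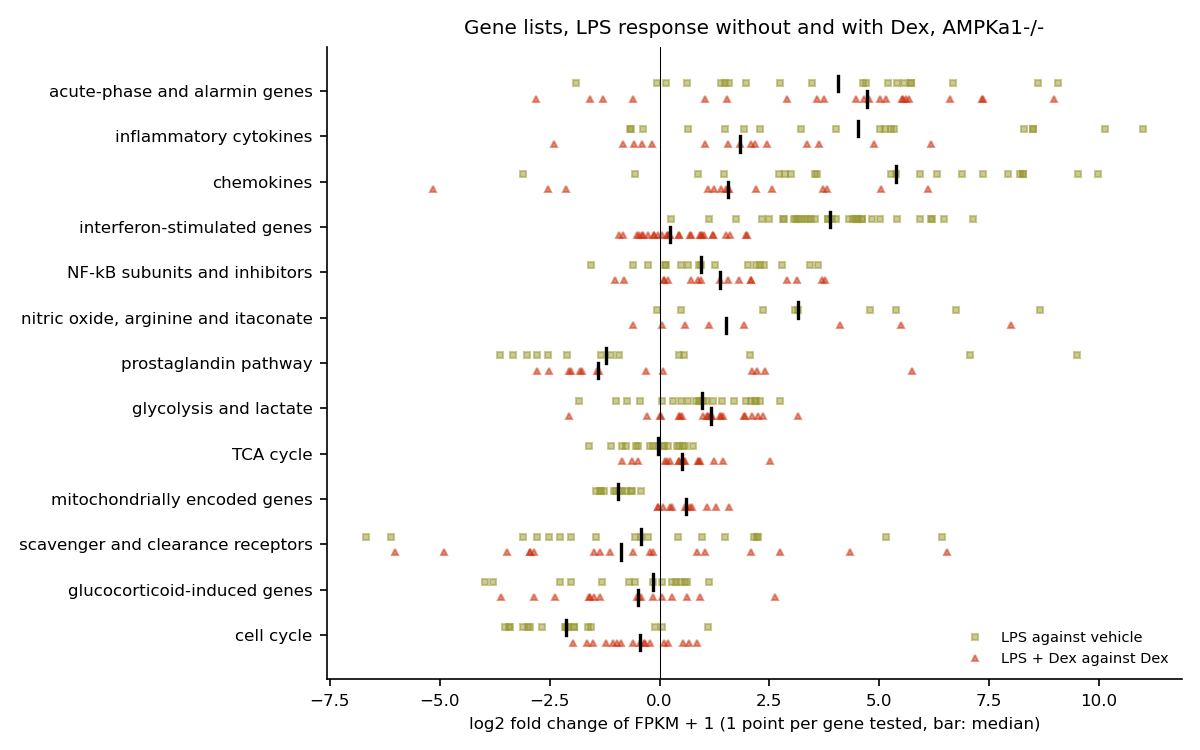
Log2 fold change of FPKM + 1 of the tested members of 13 gene lists (1 point per gene, bar at the median), for LPS + Dex against Dex and for LPS against vehicle, in the libraries labelled AMPKa1-/-. The medians of the interferon-stimulated genes are 0.23 with Dex and 3.88 without, and those of the acute-phase genes 4.71 and 4.05.

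Over all genes, the response to LPS was compared with and without Dex by the same fit. Without Dex, 7334 of 11244 genes tested were called (65.2%), 2358 higher (21%) and 4976 lower (44.3%). Of these calls 32.2% were higher in the values as deposited, 49.6% after centring. Over the 11226 genes tested for the difference of the responses, 3118 were called (27.8%), 1710 with a more positive response in the presence of Dex (15.2%) and 1408 with a more negative one (12.5%). The split of these differences also moved with the scaling, with 54.8% more positive in the values as deposited, 49.6% after centring, 49.1% with libraries rescaled to one FPKM sum and 72.4% when that rescaling left out the acute-phase genes. The responses with and without Dex rest on separate libraries.

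Of 1057 genes called at least 2-fold higher with LPS alone, 724 were also called higher with LPS + Dex over Dex (68.5%, against 19.4% of all 11226 genes), 288 were not called and 45 were called lower. Their median change was 1.91 without Dex and 1.03 with it. Of 2131 genes called at least 2-fold lower with LPS alone, 1661 were also called lower with Dex (77.9%, against 39.2% of all), 402 were not called and 68 were called higher. The medians of these genes were -1.52 without Dex and -1.0 with it. These genes were picked by their response without Dex, so the pairs of medians are given as a description.

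Among called genes with a symbol other than a model number, the 5 most negative differences of the responses were in genes of 4 cytokines and chemokines and 1 protease inhibitor. Ccl22, which draws regulatory T cells, read 679.9, 865 and 2457 FPKM with LPS and 0.768, 3.98 and 3.59 FPKM with LPS + Dex (difference of the responses -8.41 ± 0.64, limma adjusted p = 2.48e-06). Il1a read 1777, 1734 and 1681 and 3.41, 3.83 and 5.84 FPKM (difference -7.96), and Cxcl3 873, 672 and 1595 and 1.93, 1.25 and 4.61 FPKM (difference -7.96). The p40 chain Il12b and the protease inhibitor Serpinb2 had differences of -7.65 and -7.55. In all 5 the LPS libraries stood far above the LPS + Dex libraries, though these genes were picked by the size of their difference. Of 18 cytokines the difference was called smaller in 12 and larger in 1, the latter Il10, and of 23 chemokines smaller in 19 and larger in 2, against 12.5% smaller and 15.2% larger of all genes tested. Of those tested for the response without Dex, 8 cytokine and 9 chemokine genes averaged under 1 FPKM with vehicle and passed the filter through the LPS libraries. The filter for the difference was the mean over all 12 libraries, which genes can also pass through the LPS libraries alone. The counts of smaller differences are therefore given as a description. For Tnf the difference was not called, with a response of 5.03 without and 4.87 with Dex (difference -0.16 ± 0.46, limma adjusted p = 0.84).

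Other genes responded to LPS more positively in the presence of Dex. Lpl, lipoprotein lipase, fell from 1336, 1609 and 1653 FPKM with vehicle to 139.8, 139 and 189 FPKM with LPS, and rose from 114, 173 and 94.2 with Dex to 321, 279 and 415 FPKM with LPS + Dex (difference 4.73 ± 0.31, limma adjusted p = 7.77e-07). Chchd10, a small mitochondrial protein, rose from 9.46, 6.03 and 9.82 to 99.6, 78.2 and 134 FPKM with Dex present, and read 4.95, 3.95 and 5.41 and 2.42, 2.65 and 1.55 FPKM with vehicle and LPS (difference 4.32). Fos, Ccnd1 and Cxcl13 had differences of 4.64, 4.54 and 4.32. Among the acute-phase genes the difference was called larger with Dex in 8 of 21 and smaller in 1, against 15.2% and 12.5% of all genes tested. S100a8 read 11.2, 7.21 and 4.82 FPKM with vehicle and 33.0, 24.0 and 17.4 FPKM with LPS, a response of 1.58 against 4.77 with Dex (difference 3.19, limma adjusted p = 0.000484), while for Lcn2 and Saa3 the difference was not called (-0.09 and -1.25).

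**Figure D4:**
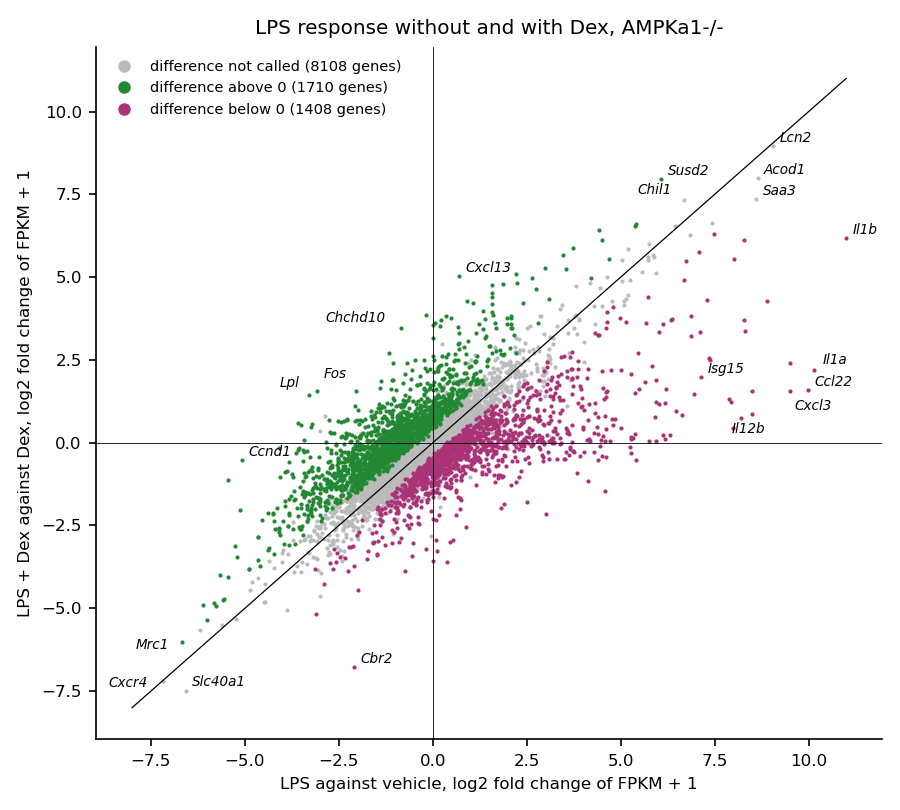
Log2 fold change of each gene with LPS against vehicle (x axis) and with LPS + Dex against Dex (y axis), libraries labelled AMPKa1-/-, on the log2(FPKM + 1) scale. Each point is 1 gene, coloured by whether the difference of the responses was called above or below 0. Ccl22, Il1a and Cxcl3 lie far to the right of their height, while Lcn2 lies near the diagonal.

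The same contrast in WT BMDMs gave 7165 calls of 11307 genes tested (63.4%), 2208 higher (19.5%) and 4957 lower (43.8%). Of these calls 30.8% were higher in the values as deposited, 50.1% after centring and 17.1% with libraries rescaled to one FPKM sum. Over the 10813 genes tested in both genotypes, Pearson's r of the fold changes was 0.92 across genes, which are not independent replicates. Of the 6491 of these called in the AMPKa1-/- libraries and the 6905 called in WT, 5212 were called in both (80.3% and 75.5%), 5201 of them in the same direction. Lcn2 rose by 10.57 in WT and 8.96 in AMPKa1-/- (difference -1.61 ± 0.62, limma adjusted p = 0.212), and the log2 fold changes of Slc40a1 were -6.62 in WT and -7.49 in AMPKa1-/-. Of the 34 interferon-stimulated genes, 17 of 33 tested in WT rose, against 19.5% of all genes tested in WT. The difference between genotypes was called in none of them by limma, against 0.0806% of all genes tested for it. With so few calls over all genes, their absence here does not set the list apart.

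The difference between genotypes itself was called in 9 of 11173 genes (0.0806%), with 2081 at an unadjusted p under 0.05. This count was unstable: it ranged from 5 to 527 when 1 library was left out, the 527 without the first WT LPS + Dex library, and was 0 with a pseudocount of 0.1. Of the 9 genes, 6 have a gene symbol other than a model number. Eno1b was at most 0.310 FPKM in all 6 AMPKa1-/- libraries and read 37.6, 34.6 and 40.9 FPKM in WT with Dex and 99.7, 147 and 179 FPKM in WT with LPS + Dex (difference of the responses -1.77 ± 0.22, limma adjusted p = 0.000849). Eno1b is a near-copy of the enolase Eno1, so that reads may be split between them. Cryaa, a lens crystallin, rose in both genotypes, to 5.44, 5.09 and 5.57 FPKM in AMPKa1-/- and 14.3, 13.5 and 25.9 FPKM in WT.

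**Figure D5:**
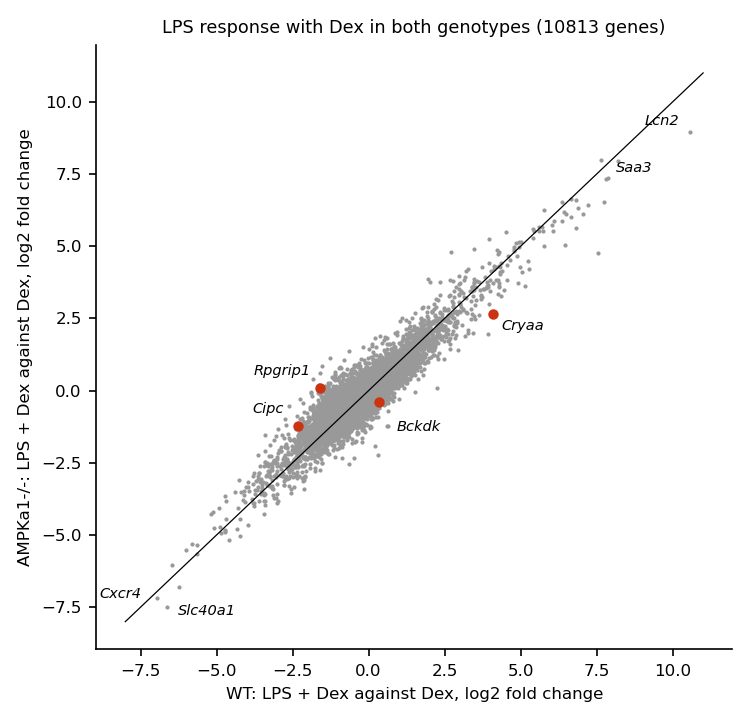
Log2 fold change of each gene for LPS + Dex against Dex in WT (x axis) and in libraries labelled AMPKa1-/- (y axis), on the log2(FPKM + 1) scale. Each point is 1 gene. Most points lie along the diagonal (r = 0.92), and the red circles are Rpgrip1, Cryaa, Bckdk and Cipc, which were called for the difference between genotypes.

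The libraries carried the markers of macrophages. All 10 macrophage markers were at 1 FPKM or more in at least one library, with Lyz2, lysozyme, the most abundant at 33059, 33976 and 27100.5 FPKM with Dex and 35795, 30515 and 24248 FPKM with LPS + Dex. Of the 10, 4 rose and 4 fell, where 19.9% of all genes tested rose and 40% fell. The sum of these markers without Lyz2 was 3388, 3764 and 3581 FPKM with Dex and 5457, 5486 and 5024 FPKM with LPS + Dex. Of 14 neutrophil markers, 7 were under 1 FPKM in every library, among them Ly6g, Elane and Mpo. Of the 7 tested, S100a8 and Camp rose, Mmp8, Ltf and Ngp fell and 2 were not called, against 19.9% higher and 40% lower of all genes. The fall of Ngp was not called after centring (limma adjusted p = 0.0804), nor when Dex replicate 1 or 2, LPS replicate 2, LPS + Dex replicate 2 or 3 or vehicle replicate 2 was left out (limma adjusted p = 0.051 to 0.15). The summed level was 143, 122 and 104 FPKM with Dex and 383, 371 and 649 FPKM with LPS + Dex. Without S100a8, the most abundant, it was 124, 109 and 96.2 FPKM with Dex and 75.9, 70.1 and 68.5 FPKM with LPS + Dex, so that the other members together were lower in each LPS + Dex library. Of 5 B cell markers, 3 were under 1 FPKM in every library, Cd79a and Ms4a1 among them, and 2 were not. Their sum was 27.5, 18.5 and 20.8 FPKM with Dex and 4.6, 4.42 and 2.06 FPKM with LPS + Dex, with Ighm the most abundant at up to 26.9 FPKM. Of 6 T and NK cell markers, 5 were under 1 FPKM in every library, Cd3e and Cd3d among them, and the sum went from 7.57, 4.37 and 8.1 FPKM to 1.34, 0.887 and 0.891 FPKM with Cd4, which macrophages can also carry, the most abundant at up to 8.07 FPKM. Each sum was lower in the LPS + Dex libraries through that 1 gene. Without Ighm the B cell sum was 0.669, 0.755 and 0.594 FPKM with Dex and 2.23, 2.48 and 1.35 FPKM with LPS + Dex, and without Cd4 the T and NK cell sum was at most 0.231 FPKM in any library. Of 5 fibroblast markers, 3 reached 1 FPKM in a library, with sums of 3.9, 4.5 and 2.99 FPKM with Dex and 3.33, 6.05 and 1.41 FPKM with LPS + Dex. Of these 3, 1 rose and 2 fell, and without Dcn, which held the highest single value, the sum was 3.71, 4.29 and 2.97 FPKM with Dex and 0.526, 1.94 and 0.524 FPKM with LPS + Dex. The 6 dendritic cell, 5 mast cell and 5 erythroid markers were all under 1 FPKM. The 3 monocyte markers summed to 4.71, 6.04 and 4.11 FPKM with Dex and 67.3, 36.1 and 26.7 FPKM with LPS + Dex, most of it Ly6c2, and 4 osteoclast markers to 66.4, 118 and 59.9 FPKM and to 414, 502 and 432 FPKM, nearly all of it Acp5. Without Acp5 the osteoclast sum was 4.62, 5.15 and 3.77 FPKM with Dex and 2.16, 2.7 and 0.997 FPKM with LPS + Dex. The part of these cells in the results was not tested.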

How the data were processed

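RNA-seq of BMDMs was used as deposited. FPKM values per gene were deposited by the authors, 1 table per library, with no statement of how the values were made. The submitters' processing notes name Bowtie2 2.2.3, TopHat2 2.0.12, HTSeq 0.6.1, DESeq2 and the builds GRCm38 and mm10, without roles. Whether reads were assigned by strand is not given in the sources used here, so overlapping and near-identical genes are uncertain. FPKM are relative values and hold no counts. For genes under 10 fragments, 55.3 to 63.8% of values per library came out whole within 0.001 when divided by the step of 1 fragment and the GENCODE M21 exon length, too few for a count test, so these steps served only to read depth. Gene positions are those of GENCODE M21.

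Genes with a mean of at least 1 FPKM over the libraries compared were tested on log2(FPKM + 1) with limma 3.58.1 (R 4.3.3; moderated, trend, two-sided) and Benjamini-Hochberg adjustment over all genes tested, with adjusted p under 0.05 as the call. LPS + Dex against Dex, LPS against vehicle and the difference between them came from 1 fit of 12 AMPKa1-/- libraries in 4 groups, the WT contrast from 11 WT libraries, and the difference between genotypes from those 23 libraries, each fit with its own filter. The scripts were tested on simulated data. Per the study's methods, replicates are cultures of individual mice, and the labels do not add to this, so p-values measure the spread between these samples.

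Named genes were the 10 largest rises and falls among called genes without overlap, up to 3 leading members of each list and further members needed to describe it, the 5 largest differences in each direction, the genes called for genotype, Prkaa1, Prkaa2, Tlr4, Cd14, Ly96 and Nr3c1, and the genes with the largest share of FPKM. A further few were named after their values were seen, as background for a list. Genes known only by model numbers were counted and not named, and some list members are counted but not reported by name. The members and lists were chosen with earlier results of these data known. Replicate numbers are shared between groups: for LPS against vehicle and for WT the same-numbered libraries deviated together (r 0.13 to 0.31 and 0.21 to 0.55), for the main contrast they did not. Unlike-numbered libraries reached r 0.17 for LPS against vehicle and 0.29 for WT, within the ranges of the same-numbered ones. Promoters are RefSeq's (GRCm38.p6). Python 3.11.15, pandas 2.3.3, numpy 2.4.6 and matplotlib 3.10.9 were used. DAMPs libraries were used in an alternative fit only.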

Additional observations from a re-analysis of the deposited data

Results flagged for a closer look

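The response to LPS in the presence of Dex differed between the genotypes, by limma's test of that difference (AMPKa1-/- minus WT), in 6 genes with a symbol. Eno1b (-1.77) and Klk1b22, a kallikrein of a family of near-copies (2.90), were at or near 0 in all 6 AMPKa1-/- libraries, so the difference is that of the WT response. Klk1b22 read 7.63, 27.7 and 16.2 FPKM in WT with Dex and 0.830, 1.14 and 1.48 FPKM in WT with LPS + Dex. Rpgrip1, a protein of the photoreceptor cilium (1.71, adjusted p = 0.0135), read 2.66, 2.62 and 2.19 and 2.72, 3.35 and 2.25 FPKM in AMPKa1-/- and 8.18, 12.6 and 6.11 and 2.70, 2.58 and 1.38 FPKM in WT, and only the WT groups stood apart. Cryaa (-1.43, adjusted p = 0.0383) rose in both genotypes and reached the higher level in WT. Bckdk, the kinase that restrains breakdown of branched-chain amino acids (-0.74, adjusted p = 0.0333), had a log2 fold change of -0.38 in AMPKa1-/- and 0.36 in WT. The former was called in the values as deposited but not after centring (-0.18), quantile normalization (-0.21) or rescaling that left out acute-phase genes (-0.22, adjusted p = 0.0664). Cipc, which binds CLOCK (1.10, adjusted p = 0.0383), fell in both, from 28.8, 26.3 and 33.8 to 11.4, 12.2 and 12.9 FPKM in AMPKa1-/- and from 67.6, 68.1 and 66.8 to 14.2, 12.9 and 11.3 FPKM in WT. The causes were not tested.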

How the results depend on the processing

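The calls of LPS + Dex against Dex numbered 5767 to 6660 when 1 library was left out, and those of LPS against vehicle, of the difference of the responses and of WT numbered 6636 to 7545, 2584 to 3368 and 6006 to 7505. With a replicate block these 4 counts were 6564, 7399, 3267 and 7239, and the same-numbered libraries of the main contrast correlated at 0.22, -0.23 and -0.06. The block also called S100a9 (adjusted p = 0.00302), Ccnd1 (0.0222), Fkbp5 (0.032) and H2-Ab1 (2.59e-06). The count of genes called for the difference between genotypes, 9, was 0 with a pseudocount of 0.1, 52 without the filter, 1 with a mean FPKM of at least 5, 15 after centring, 30 after quantile normalization, 5 with rescaling that left out acute-phase genes, 2 with only the groups compared, 30 with all 35 libraries and 33 with the replicate block; it ranged from 5 to 527 when 1 library was left out. The median of the receptor list changed sign to 0.018 after centring and 0.014 after quantile normalization. That of the iron and heme list was -0.025 without the filter, -0.36 with a mean FPKM of at least 5, 0 after quantile normalization, -0.15 with rescaling to one FPKM sum and -0.11 to 0.16 when 1 library was left out, the lowest without the third LPS + Dex library, and that of the class II list -0.15 to 1.31, the lowest without the same library. Among genes not called, Lyz2 was called lower after quantile normalization (-1.09, adjusted p = 0.00195) and changed sign to 0.13 after centring and 0.10 with rescaling that left out acute-phase genes, Myd88 to -0.14 and Rpgrip1 to -0.041 with rescaling to one FPKM sum. Rpgrip1 was called higher after quantile normalization (0.36, limma adjusted p = 0.0408). Leaving out 1 library gave -0.20 to 0.082 for Lyz2, -0.33 to 0.81 for Cd74 and -0.0021 to 0.21 for Rpgrip1. Fth1, the ferritin heavy chain, had a change of 0 after quantile normalization, which sets the top ranks of every library to equal values. The causes of the other shifts were not tested. FPKM of genes at a fraction of 1 unit rest on few fragments, and their fold changes depend on the pseudocount.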

Other observations

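The antigen presentation genes H2-Ab1 and Cd74 varied widely between cultures. H2-Ab1, a class II chain, read 2.70, 4.75 and 75.5 FPKM in the Dex libraries and 29.6, 49.3 and 514 FPKM in the LPS + Dex libraries, the third library being the highest of each group, and the invariant chain Cd74 read 56.2, 188 and 216 and 80.1, 137 and 391 FPKM. Neither was called (adjusted p = 0.0804 and 0.681), though H2-Ab1 was called without the third Dex library (log2 fold change 4.33, adjusted p = 0.0175). H2-Ab1 was also called with the replicate block (limma adjusted p = 2.59e-06), although across genes the same-numbered libraries of this contrast did not deviate together. Of 13 class II and costimulation genes, 11 were tested, 4 rose (36.4%, against 19.9% of all genes) and 1 fell, and among the 10 at 1 FPKM or more in both groups 4 rose and none fell. With the replicate block 6 rose and 1 fell. Those called without the block were costimulatory genes. Cd40 rose from 3.26, 5.00 and 2.43 to 41.5, 45.3 and 76.4 FPKM, the ligand Icosl from 6.19, 3.78 and 5.16 to 50.9, 59.8 and 65.2 FPKM and the checkpoint ligand Cd274 from 3.32, 3.33 and 4.69 to 16.9, 19.0 and 15.0 FPKM, while Cd86, which passed the filter on low values through the Dex libraries, fell from 11.9, 12.4 and 11.6 to 0.821, 0.369 and 0.919 FPKM. H2 genes are near-copies of one another, so their separate values are uncertain.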
